A study of Mus musculus with 5 samples.

Results

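The genes described are Egln3, Bnip3, Slc2a3, Vegfa and Tpi1, which stand for the response to low oxygen and for sugar breakdown. They were found by gene symbol, ignoring case, among the probes of the array. Each had 1 probe, so 5 probes of 26423 and 5 genes of 17742 are followed over 5 arrays. The study compared knockdown of Linc1405, a long non-coding RNA, with control cells during differentiation of mouse embryonic stem cells (ESCs) of the line 46C towards heart muscle. Single-colour arrays hybridised with Cy5-labelled RNA gave 1 value per probe and sample, and each group held 1 sample. The groups were Linc1405 knockdown cells at day 4 and control cells at day 4, both called mesoderm cells in the labels, then knockdown cells at day 10 and control cells at day 10, both called cardiomyocytes, and undifferentiated control ESCs at day 0. The labels write the knockdown samples as 1405KIpA, a name not explained in the sources used here, as is whether the knockdown line was 1 clone. Day 4 cultures of both lines had received Bmp4 at 0.2 ng/ml, Activin A at 5 ng/ml and VEGF at 5 ng/ml. Day 10 cultures of both lines had received bFGF at 10 ng/ml, VEGF at 5 ng/ml and FGF10 at 25 ng/ml. ESC medium held 15% serum and LIF at 1000 U/ml, and the feeder layer was taken away before harvest. The sources used here do not give the oxygen tension.

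When oxygen is scarce, prolyl hydroxylases no longer mark the HIF alpha subunits for destruction, and HIF with its partner Arnt turns on genes that hold the core motif ACGTG or GCGTG. Egln3 encodes one of these hydroxylases and is itself a HIF target. Bnip3 encodes a protein of the outer mitochondrial membrane that acts in mitophagy, Slc2a3 encodes the glucose transporter GLUT3, and Vegfa encodes the main growth factor of blood vessels. Tpi1 encodes triosephosphate isomerase, the glycolytic enzyme that interconverts the triose phosphates made by aldolase. Pluripotent cells and the early heart are both known for strong use of glycolysis, and heart muscle turns to oxidative metabolism as it matures.

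The promoters of Egln3, Bnip3 and Vegfa are shown because these genes were lower together in knockdown cells at day 10, and that of Tpi1 because it was higher there. The sequences are RefSeq windows of the build GRCm38.p6, 250 bases before to 50 after a gene start, written 5′ to 3′ along the gene, all on the minus strand. Capitals mark ACGTG or GCGTG on either strand of the window. On the other strand they read CACGT or CACGC, and CACGT and ACGTG overlap where CACGTG, the E-box, is present. The windows are Egln3 chr12:54203825-54204124, Bnip3 chr7:138909457-138909756, Vegfa chr17:46032328-46032627 and Tpi1 chr6:124814109-124814408.
Egln3: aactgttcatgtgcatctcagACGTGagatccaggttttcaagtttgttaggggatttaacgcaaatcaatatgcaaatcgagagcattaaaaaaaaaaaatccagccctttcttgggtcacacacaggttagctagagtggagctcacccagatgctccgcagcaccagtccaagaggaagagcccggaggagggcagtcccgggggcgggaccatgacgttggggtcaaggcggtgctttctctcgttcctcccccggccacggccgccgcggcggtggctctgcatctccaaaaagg
Bnip3: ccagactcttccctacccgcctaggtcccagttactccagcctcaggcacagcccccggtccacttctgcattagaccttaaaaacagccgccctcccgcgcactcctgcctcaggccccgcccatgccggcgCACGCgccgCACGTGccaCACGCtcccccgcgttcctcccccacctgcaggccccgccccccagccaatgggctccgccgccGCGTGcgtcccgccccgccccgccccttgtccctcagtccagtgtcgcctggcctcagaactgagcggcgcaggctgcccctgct
Vegfa: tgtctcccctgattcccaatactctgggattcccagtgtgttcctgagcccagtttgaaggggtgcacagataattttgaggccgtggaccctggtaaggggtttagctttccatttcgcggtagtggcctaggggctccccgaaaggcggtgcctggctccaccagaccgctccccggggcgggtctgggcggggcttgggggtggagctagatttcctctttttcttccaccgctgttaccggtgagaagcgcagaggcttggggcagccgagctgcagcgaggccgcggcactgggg
Tpi1: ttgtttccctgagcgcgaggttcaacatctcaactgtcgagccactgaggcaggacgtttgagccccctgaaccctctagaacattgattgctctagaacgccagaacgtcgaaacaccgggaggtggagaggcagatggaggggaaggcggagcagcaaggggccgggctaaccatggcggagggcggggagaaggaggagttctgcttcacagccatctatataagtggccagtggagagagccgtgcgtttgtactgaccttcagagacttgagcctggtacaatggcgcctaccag
The Egln3 window held 1 match, starting at position -229 from the gene start. The Bnip3 window held 5 matches, of which 2 overlap in an E-box, from position -117 to position -35. The Vegfa and Tpi1 windows shown held 0 matches. A second Vegfa window, chr17:46025114-46025413, held 2 matches, at positions -218 and -211. The window of Bnip3 had 71.7% G and C, against 54.7% for Egln3, 62% for Vegfa and 57.3% for Tpi1. Such short letters are common: 14380 of 32851 windows of this length, 43.8%, held at least 1 match. By gene, 57.6% of 13980 array genes with a window held a match in any of their windows, and so did 25 of 26 hypoxia-induced genes with a window (96.2%). A match is a description of the letters and not a binding site. Slc2a3 has no entry in the promoter table.

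Median deposited intensities ran from 344 to 745 over the 5 arrays, and the values below are quantile normalised log2 intensities. With 1 array per group there is no spread within a group, no test was run, and precision is limited by having so few arrays. The between-probe SD stands for probe error alone: it is how far the log2 difference of a single probe strays, judged where a gene has more than 1 probe past the intensity filter. It was 0.21 for knockdown against control at day 4 and 0.27 at day 10, and between 0.61 and 0.74 for the comparisons across days. Genes were counted when the brighter array of a pair was at or above the median log2 intensity of 9.16 and the values differed at least 2-fold. All 5 members passed this filter in all 5 comparisons. The stage labels were set against markers: 9 of 10 pluripotency genes were measured, with a median log2 intensity of 15.67 on the ESC array and at most 10.13 on the others. The 10 mesoderm and streak markers had their highest medians at day 4, 13.37 in knockdown and 13.75 in control cells. Of 14 cardiomyocyte markers 9 were measured, with medians of 13.00 in knockdown and 15.30 in control cells at day 10. Linc1405 itself is not among the named probes, so the knockdown was not checked here.

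**Figure D1:**
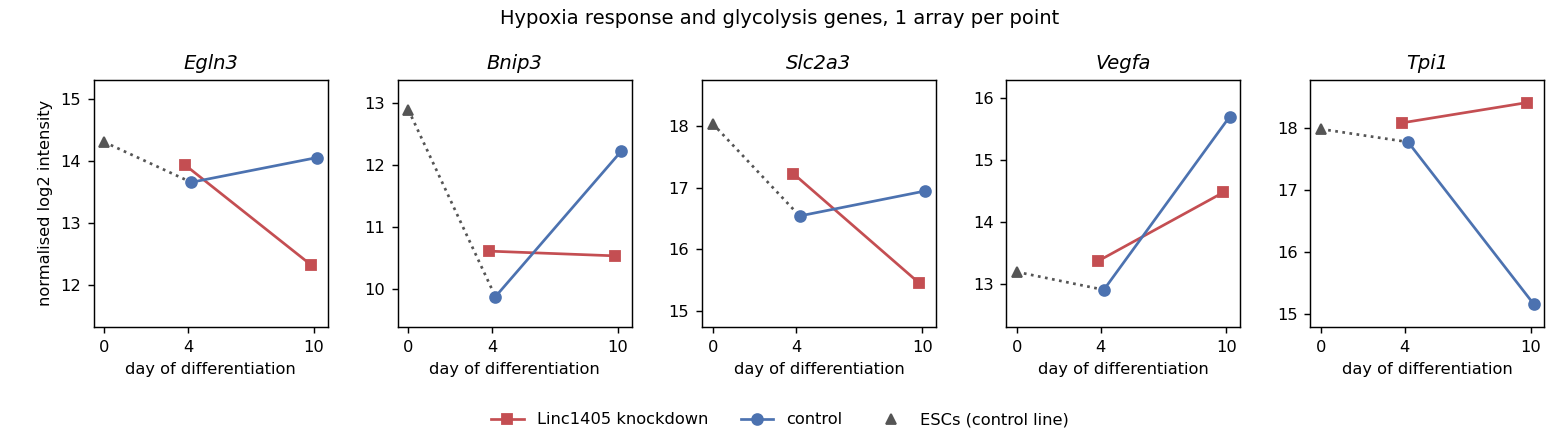
Normalised log2 intensity (vertical axis, 4 log2 units in each panel) of Egln3, Bnip3, Slc2a3, Vegfa and Tpi1 against the day of differentiation, 1 array per point; red squares are knockdown, blue circles control and the grey triangle ESCs. At day 10 the knockdown array lies below control for Egln3, Bnip3, Slc2a3 and Vegfa and above it for Tpi1, whose control array at day 10 is the only one below 17.

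Egln3 had log2 intensities of 13.94 in knockdown and 13.66 in control cells at day 4, 12.33 in knockdown and 14.06 in control cells at day 10, and 14.31 in ESCs. The knockdown array at day 10 stood lowest, 1.33 below the next array. The other 4 arrays lay within 0.65 of each other, close to the between-probe SD of 0.61 for day 4 against ESCs. In deposited units, Egln3 was at 5099 in knockdown and 11475 in control cells at day 10.

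Bnip3 had log2 intensities of 10.61 in knockdown and 9.87 in control cells at day 4, 10.53 in knockdown and 12.22 in control cells at day 10, and 12.89 in ESCs. ESCs and day 10 control cells were high, and the other 3 arrays were low. Its range of 3.02 was the widest after that of Tpi1, and its control array at day 4 was the lowest. The deposited intensities were 1433 in knockdown and 3321 in control cells at day 10, and 6542 in ESCs.

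Slc2a3 had log2 intensities of 17.23 in knockdown and 16.54 in control cells at day 4, 15.46 in knockdown and 16.95 in control cells at day 10, and 18.03 in ESCs. ESCs stood highest by 0.81 and the knockdown array at day 10 lowest by 1.08, with the other 3 between them. The control arrays at days 10 and 4 differed by 0.40, within the between-probe SD of 0.74. The order of Slc2a3 over the arrays was that of Egln3 except that day 4 knockdown and day 10 control changed places.

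Vegfa had log2 intensities of 13.36 in knockdown and 12.90 in control cells at day 4, 14.47 in knockdown and 15.69 in control cells at day 10, and 13.19 in ESCs. Both day 10 arrays stood above the other 3, and the control array was highest by 1.22. In deposited units Vegfa was at 21667 in knockdown and 36477 in control cells at day 10, and at 8068 in ESCs. The VEGF listed for the day 4 and day 10 media is protein, and the probe reads the cells' own RNA.

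Tpi1 had log2 intensities of 18.08 in knockdown and 17.77 in control cells at day 4, 18.41 in knockdown and 15.15 in control cells at day 10, and 17.98 in ESCs. A single array departed: control cells at day 10 lay 2.62 below the next lowest, while the other 4 arrays stayed between 17.77 and 18.41. The deposited intensities show the same, with 302135 in knockdown and 24825 in control cells at day 10, and between 264823 and 350049 on the other 3 arrays.

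Knockdown against control at day 4 compared the knockdown and control lines at the mesoderm stage. With 1 array for each, loss of Linc1405 and other differences between the lines cannot be told apart. All 5 members were slightly higher in knockdown cells, and 0 of 5 differed 2-fold. Bnip3 differed by 0.74 (1.67-fold), Slc2a3 by 0.68 (1.61-fold) and Vegfa by 0.46 (1.38-fold), each more than 2 between-probe SDs. Tpi1 differed by 0.31 and Egln3 by 0.28, between 1 and 2 such SDs. Of the 10699 genes past the filter, 0.804% reached 2-fold upwards and 1.47% downwards. The split was 86 higher and 157 lower, and 135 and 117 with the values as deposited. Cell type markers also differed at day 4: of those past the filter, 2 of 5 blood markers were at least 2-fold higher in knockdown cells, Klf1 (1.32) and Alas2 (1.32). Lower were 2 of 5 pluripotency genes, Tdgf1 (-3.48) and Tfcp2l1 (-1.15), 1 of 10 mesoderm and streak markers, Mixl1 (-1.26), 1 of 8 endothelial markers, Tie1 (-1.15), and 1 of 5 liver-type endoderm markers. Summed intensities were 34974 in knockdown and 29033 in control cells for blood, 11466 in knockdown and 23295 in control cells for pluripotency, and 158210 in knockdown and 180686 in control cells for mesoderm and streak. Their part in the member differences was not tested.

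**Figure D2:**
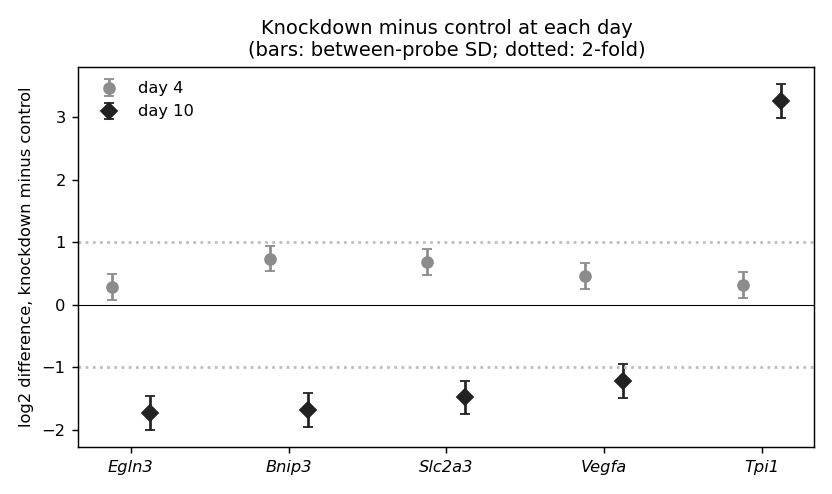
Log2 difference, knockdown minus control (vertical axis), for each of the 5 genes at day 4 (grey circles) and day 10 (black diamonds), with the between-probe SD as bars and dotted lines at 2-fold. At day 4 the differences lie between 0.28 and 0.74; at day 10 Egln3, Bnip3, Slc2a3 and Vegfa lie between -1.73 and -1.22 and Tpi1 at 3.26.

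The same comparison at day 10 asked about cells at the cardiomyocyte stage. Egln3 was 3.32-fold lower in knockdown cells (log2 difference -1.73), Bnip3 3.23-fold lower (-1.69), Slc2a3 2.80-fold lower (-1.49) and Vegfa 2.33-fold lower (-1.22). These differences were between 4.50 and 6.36 between-probe SDs. Tpi1 was 9.57-fold higher (3.26), and 9 of 10886 genes, Tpi1 included, were that high or higher. Over all genes past the filter, 2.5% reached 2-fold upwards and 3.61% downwards. The members were taken up with these values known, so the count of 4 lower and 1 higher is a description. With the values as deposited, where the median of all genes lies at 0.37, the differences were -1.17 for Egln3, -1.21 for Bnip3, -1.10 for Slc2a3, -0.75 for Vegfa and 3.61 for Tpi1. Vegfa was then less than 2-fold lower, and relative to that median it was at -1.12. The split of all genes was 272 higher and 393 lower, and 1093 and 160 as deposited.

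Markers of cell types moved at day 10 as well. Fewer cells of a type and less RNA per cell cannot be told apart in such cultures. Of 9 liver-type endoderm markers 8 were at least 2-fold lower in knockdown cells, with summed normalised intensities of 27663 in knockdown and 188242 in control cells. Of 9 cardiomyocyte markers 6 were lower and 1, Tnnt2, was higher, with sums of 311743 in knockdown and 570392 in control cells. Of 6 epicardial markers past the filter 5 were higher, and the 7 measured summed to 139817 in knockdown and 47127 in control cells. Of 4 macrophage markers past the filter 2 were lower. Adgre1, which did not pass it, was at -1.18. The 5 measured summed to 5703 in knockdown and 11558 in control cells. Pluripotency genes past the filter were lower in 2 of 4 cases, Tfcp2l1 (-1.88) and Tdgf1 (-1.40), with sums of 5918 in knockdown and 10411 in control cells. Mesoderm and streak markers were lower in 2 of 8, with sums of 41166 in knockdown and 45940 in control cells, and blood markers in 1 of 3, Cd34 (-1.29), with sums of 19193 in knockdown and 25967 in control cells. Neural markers reached 2-fold in 0 of 3, with sums of 4963 in knockdown and 4585 in control cells. Endothelial markers reached it in 0 of 8, with sums of 143989 in knockdown and 144233 in control cells. Fibroblast markers did so in 0 of 5 past the filter. The 7 measured fibroblast markers summed to 227180 in knockdown and 216885 in control cells. No marker on these lists lay at the intensity floor at day 10 apart from Mesp1 of the mesoderm list on both arrays and Pax6 of the neural list in knockdown cells. The part of cell composition in the results for the 5 genes was not tested.

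Over the 4 arrays of days 4 and 10 the lines took different courses. Egln3 changed by -1.61 in knockdown and 0.40 in control cells, Slc2a3 by -1.77 in knockdown and 0.40 in control cells. Bnip3 stayed almost level in knockdown cells (-0.08) and was 2.35 higher at day 10 in control cells. Vegfa was higher at day 10 in both lines, by 1.11 in knockdown and 2.80 in control cells. The difference between the courses, knockdown minus control, was -2.01 for Egln3, -2.43 for Bnip3, -2.17 for Slc2a3, -1.68 for Vegfa and 2.95 for Tpi1. Among 11736 genes 4.03% had a course at least 2-fold higher in knockdown cells and 4.04% one at least 2-fold lower. Genes above 0 at day 4 and at least 2-fold lower at day 10, as these 4 members were, made up 102 of 9849 genes, or 1.04%. The pattern was set with the values of these 4 members known, so this share is a description and no test of them.

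Other hypoxia-induced genes were read from a list of 38 genes, of which 35 were measured and 34 passed the filter at day 10. In knockdown cells 11 lay 2-fold or more below control and 1 above it, and 31 of 35 lay below 0. Over all genes past the filter 3.61% lay 2-fold or more below control and 2.5% above it. These shares are also the background for the day 10 counts of the lists that follow. Leaving out the 4 members on this list, 7 of the 30 that passed the filter lay 2-fold or more below control and 1 above it, with a median of -0.48 over the 31 measured and 0 over all genes. Lower besides the members were Car12 (-1.56), a carbonic anhydrase, Ero1a (-1.24), an oxidase of the endoplasmic reticulum, Hk2 (-1.15), hexokinase 2, and Stc2 (-1.15), a secreted glycoprotein. Tfrc (-1.13), the transferrin receptor, Adm (-1.11), the vasodilator adrenomedullin, and Higd1a (-1.05), a mitochondrial protein, completed them. The 1 higher gene was Angptl4 (1.06), a secreted inhibitor of lipoprotein lipase. As deposited, 4 of the whole list were at least 2-fold lower, and the members Egln3, Bnip3 and Slc2a3 were among these. At day 4, 0 of 33 past the filter differed 2-fold in either direction, with a median of 0.07 over the 31 other measured genes.

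**Figure D3:**
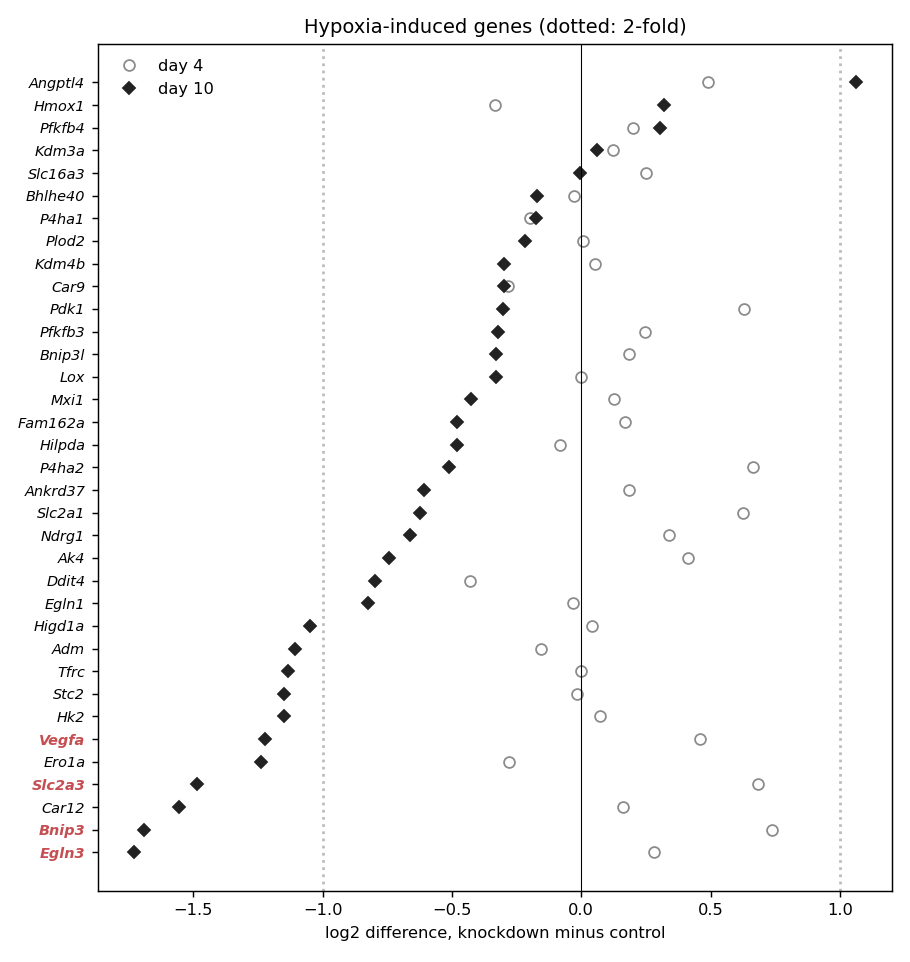
Log2 difference, knockdown minus control (horizontal axis), of the 35 measured hypoxia-induced genes, sorted by day 10, with open circles for day 4, diamonds for day 10, dotted lines at 2-fold and the members in bold red. At day 10, 31 of 35 genes lie below 0, with Egln3 (-1.73) and Bnip3 (-1.69) at the bottom, while at day 4 all lie within 2-fold.

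The oxygen-sensing genes upstream were measured in full, 16 of 16. At day 10, 1 of 16 was at least 2-fold lower in knockdown cells, Egln3 itself, and 1 was higher, Arnt2 (1.40), a HIF partner subunit of neural tissue. The other hydroxylases were at -0.82 for Egln1, whose second probe gave -0.76, and 0.39 for Egln2. Hif1a, the alpha subunit found in most cells, was level at 0.03 on its brightest probe and at -0.08 and 0.39 on its others. Epas1, the HIF2 alpha subunit of endothelium, was higher by 1.14 at day 4, the only one of 14 past the filter to reach 2-fold there, with 0.86 on its second probe. At day 10 Epas1 differed by -0.88 on the brighter probe and 0.01 on the other. Vhl, which directs hydroxylated HIF to the proteasome, differed by 0.44 at both days. HIF is set mainly by protein stability, which these arrays do not read.

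Among VEGF ligands and receptors, 10 of 10 measured, Vegfa was the 1 gene at least 2-fold apart at day 10. The ligands Vegfb (-0.07), Vegfc (-0.20) and Pgf (0.12) and the receptor Kdr (0.09) stayed within the between-probe SD, and Flt1, the decoy-like receptor, was at -0.69. At day 4 the receptors ran either way, with Kdr at -0.92 and Flt1 at 0.80, and 0 of 8 past the filter reached 2-fold.

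Glucose and lactate transporters were all measured, and 9 of 16 passed the filter at day 10. Slc2a3 was the 1 gene at least 2-fold lower in knockdown cells. Slc2a1, the GLUT1 gene, differed in the same directions by less: by 0.62 at day 4 and by -0.62 at day 10. Its log2 intensities were 17.21 in knockdown and 16.58 in control cells at day 4, and 15.23 in knockdown and 15.85 in control cells at day 10. Slc2a4, the insulin-regulated transporter of muscle, was at -0.01 at day 10.

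In the BNIP3 family and mitophagy list, 16 of 18 were measured and all 16 passed the filter. Bnip3 was the 1 gene at least 2-fold lower at day 10, and Bcl2l13 (1.09), another mitophagy receptor, the 1 higher. Bnip3l, the close relative of Bnip3, differed by 0.18 at day 4 and -0.33 at day 10. At day 4, 0 of 16 reached 2-fold.

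Glycolytic enzymes were measured for 14 of 23 genes, and Gapdh and Pgk1, the steps after Tpi1, are not analysed here. At day 10, 3 of the 12 that passed the filter were lower in knockdown cells by 2-fold or more: Pgam2 (-1.22), the muscle phosphoglycerate mutase, Hk2 (-1.15) and Aldoc (-1.03), aldolase C. As deposited 0 of them reached 2-fold. Tpi1 was the 1 gene higher. Aldoa, the main aldolase, differed by 0.27. Without Tpi1 the median was -0.37 over the 11 other genes past the filter and -0.52 over the 13 other measured genes. At day 4 Pgam2 was higher in knockdown cells by 1.59, 1 of 11 past the filter.

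**Figure D4:**
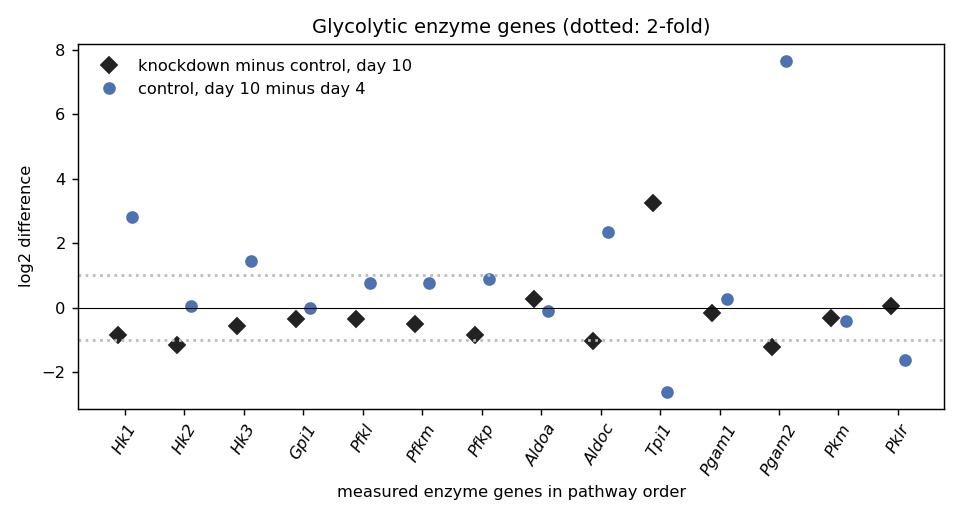
Log2 differences (vertical axis) of the 14 measured glycolytic enzyme genes in pathway order, with diamonds for knockdown minus control at day 10, circles for control day 10 minus control day 4 and dotted lines at 2-fold. Tpi1 has the highest diamond (3.26) and the lowest circle (-2.62), both of which include the control array at day 10.

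The departure of Tpi1 was confined to 1 array. On the control array at day 10, 2 of 12185 genes lay at least 4-fold below all 4 other arrays, and 1 of these, Tpi1, had its other 4 arrays within 2-fold of each other. The same search found 1 gene on the control array at day 4, Gtf2ird1, 0 on either knockdown array and 83 on the ESC array. Upwards, with the same limits, there were 7 genes on the control and 10 on the knockdown array at day 10. At day 4 there were 2 on the control and 0 on the knockdown array, and the ESC array had 187. Of the genes beside Tpi1 on the chromosome, Spsb2 differed by 0.43 and Usp5 by 0.35 between knockdown and control cells at day 10. Spsb2 was higher at day 10 than at day 4 in both lines, by 0.60 in knockdown and 0.43 in control cells, and Usp5 lower in both, at -1.03 in knockdown and -1.31 in control cells. No second Tpi1 probe was among the named probes, so a fault of this spot and a change in RNA cannot be told apart.

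**Figure D5:**
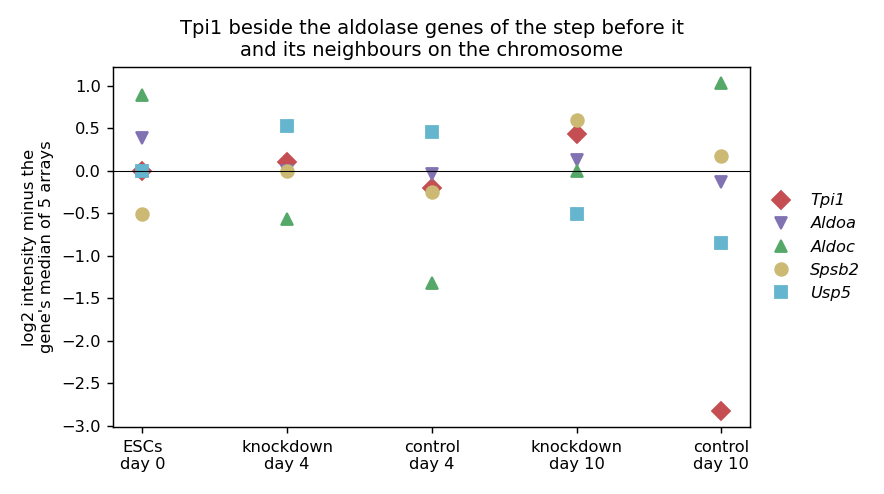
Log2 intensity minus the gene's own median of the 5 arrays (vertical axis), by array, for Tpi1, the aldolase genes Aldoa and Aldoc, and the chromosome neighbours Spsb2 and Usp5. Tpi1 lies between -0.21 and 0.43 on 4 arrays and at -2.83 on the control array at day 10.

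The comparison of control cells at day 4 with ESCs followed entry into mesoderm. Bnip3 was 8.10-fold lower at day 4 (-3.02) and Slc2a3 2.81-fold lower (-1.49). Egln3 (-0.65) stayed within 2-fold, and Vegfa (-0.29) and Tpi1 (-0.21) within the between-probe SD of 0.61. Background shares were 12.8% at least 2-fold higher and 13.9% lower, of 11293 genes, and as deposited the split of 1447 higher and 1574 lower became 2289 and 1261. On the hypoxia-induced list 19 of the 34 that passed the filter lay 2-fold or more below ESCs and 0 above, and 17 of 30 without the members. Besides Bnip3, the lowest were Lox (at -5.66 or lower, since day 4 lay at the intensity floor, and -3.16 on its second probe), lysyl oxidase, Angptl4 (-3.51), Bhlhe40 (-3.27), a circadian repressor, and Adm (-2.71). Aldoc (-2.21), Hk1 (-2.09), Pgam2 (-2.04) and Hk2 (-1.16) were the 4 of 11 glycolytic enzymes at least 2-fold lower, and 0 were higher. Fibroblast markers, which feeder cells also express, moved with these genes: the 7 measured summed to 1948 in control cells at day 4 and 34506 in ESCs, with Dcn and Postn bright on the ESC array. Col3a1 lay at the floor on both arrays, with Lum at the floor at day 4 and Fbln1 in ESCs. The part of feeder RNA in these differences was not tested.

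From control day 4 to control day 10, Vegfa was 6.94-fold higher (2.80) and Bnip3 5.10-fold higher (2.35). Tpi1 was 6.15-fold lower (-2.62) through the array described above, and Egln3 and Slc2a3 (0.40 each) stayed within the between-probe SD. In the background of 11434 genes, 19.1% lay 2-fold or more above day 4 and 19.4% below it. The split was 2182 higher and 2214 lower, 1092 and 5483 as deposited, and 2487 and 1679 with loess centring. Of the hypoxia-induced list 17 of 34 lay 2-fold or more above day 4 and 2 below it. Among those higher were Adm (4.50), Lox (at least 4.41, and 1.80 on its second probe), Plod2 (2.99), a collagen lysyl hydroxylase, and P4ha1 (2.45), a collagen prolyl hydroxylase. Lower were Car9 (-1.37), a carbonic anhydrase, and Pfkfb4 (-1.08), which makes an activator of glycolysis. Cell type markers moved with this list: fibroblast markers summed to 216885 at day 10 and 1948 at day 4, liver-type endoderm markers to 188242 at day 10 and 9326 at day 4, and cardiomyocyte markers to 570392 at day 10 and 12356 at day 4. The part of cell composition in the control course was not tested.

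In the knockdown line the step from day 4 to day 10 ran otherwise for these members. Slc2a3 was lower by a log2 difference of -1.77 at day 10 and Egln3 by -1.61, Vegfa was 2.16-fold higher (1.11), and Tpi1 (0.33) and Bnip3 (-0.08) within the between-probe SD of 0.71. As deposited Vegfa was higher by 0.62, less than 2-fold. Among 11416 genes 18.7% lay 2-fold or more above day 4 and 18.1% below it, 2139 and 2062 genes, and 1408 and 4281 as deposited. Of the hypoxia-induced list 11 lay 2-fold or more above day 4 and 6 below it, and as deposited 6 and 11. Slc2a1 (-1.98) was the lowest of the list, and Hk2 was at -1.18. Markers moved in the knockdown course too, with sums of 227180 at day 10 and 1619 at day 4 for fibroblasts, 139817 at day 10 and 6469 at day 4 for epicardium, and 311743 at day 10 and 13756 at day 4 for cardiomyocytes. Their part in this course was not tested.

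Genes with the pattern most like each member were taken by the smallest Euclidean distance between centred log2 values over the 5 arrays, among 11451 genes. For Egln3 they were Alox5 (distance 0.37), Sowahb (0.37) and B4galnt2 (0.45), and for Slc2a3 they were Fam3b (0.33), Cdx1 (0.42) and Hk2 (0.51). For Vegfa they were Rgs10 (0.34), Ppil6 (0.43) and Ccl6 (0.44). Bnip3 had less close matches in Parm1 (0.63), Anxa8 (0.64) and Pla2g7 (0.71). Those of Tpi1 were the farthest, Nudt16l1 (1.07), Acox3 (1.08) and Emx2 (1.20). Some matches were dim on several arrays. Fam3b reached the intensity filter only in ESCs and was at 6.65 in knockdown cells at day 10, near the floor of 6.64. Ppil6 and Ccl6 lay below the filter in ESCs and in both lines at day 4. Between members, Egln3 and Slc2a3 were closest (0.70), and Tpi1 was at least 3.48 from each of the others.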

How the data were processed

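RNA of 5 mouse cultures was measured on single-colour arrays, 1 array per group, with groups taken from the labels. The authors deposited linear intensities, 1 per probe. Software named in the submitters' processing notes is Agilent Feature Extraction 10.7.1.1, with no further step known here. Values at or below 0 show that a background had been subtracted. The knockdown array at day 10 had 1050 such probes and the other arrays 0 to 38. The 75th percentiles, from 2683.5 to 5007, show no normalization between arrays. No detection or saturation marks entered.

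The 5 arrays were quantile normalised, values under 100 were raised to 100, and log2 was taken, with Python 3.11.15, numpy 2.4.6, pandas 2.3.3 and statsmodels 0.14.6 (loess). Of 26423 probes, 20377 carried 1 symbol, 0 several, and 6046 are unnamed here. Symbols were matched ignoring case to the gene table of GRCm38.p6, 18213 by current symbol and 2126 by synonym, and 38 were kept. The brightest probe stood for a gene. The chain was tested on simulated arrays with known fold changes, which checks the calculation and not the precision of the differences reported here. No p-value was computed.

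Named were the 5 members, up to 4 genes per list and direction at least 2-fold apart, fixed paralogs and pathway neighbours, the 3 nearest patterns and the nearest gene on each side on the chromosome. Genes named outside that rule were chosen after their values were seen: Tnnt2 and the other cell type markers, Dcn and Postn among them, Gtf2ird1, Slc2a4, Pdk1, Pdha1, Flt1 and Kdr within 2-fold, and the hypoxia-induced genes lower at day 10 beyond the first 4. The members and lists were chosen with earlier results of these data known. Alternatives were the values as deposited, scaling to the 75th percentile, loess centring (span 0.3, 3 iterations), floors of 50 and 200, the mean of all probes, no filter and a filter at the 75th percentile. The search for single-array departures, the difference between courses and the counts without the members were added after seeing the data. So were the count of genes above 0 at day 4 and at least 2-fold lower at day 10, and the limit of the probe error to genes past the filter.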

Additional observations from a re-analysis of the deposited data

Results flagged for a closer look

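The knockdown minus control difference lay on opposite sides of 0 at day 4 and day 10, beyond the between-probe SD at both days, for 4 of the 5 genes. Egln3 was at 0.28 at day 4 and -1.73 at day 10. Bnip3 was at 0.74 at day 4 and -1.69 at day 10. Slc2a3 was at 0.68 at day 4 and -1.49 at day 10, and Vegfa at 0.46 and -1.22 on the same days. With 1 array per group the difference between the days was not tested. These are the same values as those behind the difference between the courses above. The members were taken up with them known, so the count of 4 is a description. The share of all genes that meet this rule was not counted. Under the values as deposited the signs were the same, with Egln3 at 0.49 and -1.17 and Vegfa at 0.68 and -0.75.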

How the results depend on the processing

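No paired analysis was possible because each group holds 1 array, and for the same reason no array could be left out of a group. Over 6 alternatives for the member differences, 140 values moved by no more than the between-probe SD, and the 10 that moved further were all with the values as deposited. The floors of 50 and 200 and the mean of all probes could not move any member difference, so their share of the 140 carries no information. Each member had 1 probe, and every member value lay above both floors. No difference of at least 2-fold changed sign. Below 2-fold, control day 10 minus day 4 was -0.39 for Egln3 and -0.26 for Slc2a3 as deposited, against 0.40 for each, knockdown day 10 minus day 4 was -0.21 for Tpi1 as deposited, and control day 4 minus ESCs reached 0.12 for Vegfa. Bnip3 in the knockdown course reached 0.11. In the counts of genes at least 2-fold apart, 61 stayed within 1.5 times and 19 did not. The floors of 50 and 200 could not change these counts or those of list members, since the filter lies more than 2-fold above both floors. With the values as deposited the counts higher were 135 and 1093 for knockdown against control at days 4 and 10, 2289 for control day 4 against ESCs, 1092 for control day 10 against day 4 and 1408 for knockdown day 10 against day 4. The counts lower that moved were 160 for knockdown against control at day 10, 5483 for control day 10 against day 4 and 4281 for the knockdown course. The median of all genes was then 0.20, 0.37, 0.17, -0.72 and -0.58 in these 5 comparisons, and with 75th percentile scaling -0.11 and -0.20 in the last 2. With the filter at the 75th percentile fewer genes were tested, and the counts higher were 24, 116, 677, 1222 and 1202 in the same order, and the counts lower 33, 181, 761, 1274 and 1194. With no filter 239 genes were lower in knockdown cells at day 4. Of the counts of list members 508 stayed within 1.5 times and 52 did not, and the cause of the moves was not tested. Dim signals near the floor, 19.0 to 19.1% of probes per array, limit low genes and touch no member.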

Other observations

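Genes that steer pyruvate into or away from the mitochondria were described less closely above. Of 11 genes on that list 10 were measured and 8 passed the filter at day 10. For knockdown minus control at day 10, 9 of 10 measured genes lay below 0, with a median of -0.27. The between-probe SD of 0.27 is the error of a single probe's difference and gives no error for this median. A shift of the whole list was not tested. Pdk4, a kinase that shuts off pyruvate dehydrogenase, was 1 of 8 at least 2-fold lower in knockdown cells (-1.19), with 0 higher. The shares over all genes were 3.61% lower and 2.5% higher. Pdk1, the hypoxia-induced kinase of the Pdk4 family, had a knockdown minus control difference of 0.63 on day 4 and -0.30 on day 10. Its log2 intensities were 10.23 in knockdown and 9.60 in control cells at day 4, 11.34 in knockdown and 11.64 in control cells at day 10, and 11.84 in ESCs. Pdha1, the catalytic subunit gene, was at -0.59 at day 10.

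The measured gene beside Bnip3 on its chromosome, Ppp2r2d, a phosphatase subunit, was at -0.09 (day 4) and -0.23 (day 10) for knockdown minus control. The genes next to Egln3, Slc2a3 and Vegfa are not analysed here. Cited2, which competes with HIF for its coactivators, was higher by 2.83 at day 4 than in ESCs in control cells, on its brighter probe, and by 3.44 on the other.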
